A study of Drosophila melanogaster with 7 samples.

Results

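The families described here are the LINE retrotransposons of the repeat table that lie outside the telomeres and the ribosomal DNA. They were taken as the rows whose class was LINE, leaving out the telomeric HETA, TART, TAHRE and TART_B1 and the rDNA elements R1_DM and R2_DM. This left 32 of 38 LINE rows, among 9213 repeat rows in all. The table groups them by clade as 24 Jockey, 4 R1, 2 I, 1 CR1 and 1 LOA family, and each row sums reads over the genomic copies of one family. Nascent RNA was measured by Gro-seq, in which polymerases already engaged on DNA extend and label their transcripts in isolated nuclei, in 3 ctr and 4 TM libraries of Drosophila melanogaster embryos at cycle 14, when the zygotic genome is activated (ZGA). TM (triple mutant) embryos were collected from the F1 flies of a cross in which both lines were homozygous for a Su(var)3-9 knockout. In the germline of the F1 mothers, dSetDB1 (egg) and G9a were knocked down by shRNAs under maternal tubulin Gal4 at late oogenesis. The ctr embryos were labelled wildtype. The labels give the crosses as NI762 with NI746 for TM and T180 with NI746 for ctr. They do not say what T180 or NI746 carries. The study's methods list a TRIP line as a control stock, without linking it to T180. Since NI746 is in both crosses, the ctr flies may also carry a Su(var)3-9 knockout allele or the Gal4 driver. The TM stocks were built by recombination and differ from ctr in more than the 3 targeted genes. The number of copies of each element in these stocks was not measured here, so more copies and more transcription per copy cannot be told apart. Nor can, in whole embryos, more transcribing nuclei and more RNA per nucleus.

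LINE elements are retrotransposons without long terminal repeats. A full copy has a promoter inside its own first bases, encodes a reverse transcriptase, and copies its RNA into the genome at a nick, starting at the 3' end, so that many copies lack their 5' part. In the fly germline they are silenced by piRNAs, which direct cleavage of their RNA in the cytoplasm and H3K9 methylation of their copies in the nucleus. The I element is known for hybrid dysgenesis, the sterility of daughters when it enters a naive egg. The Jockey clade holds jockey itself and the Doc, F, G and BS elements. The LOA clade was first described from an element of a Hawaiian Drosophila.

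The ends of these elements are shown because they carry the promoter and the priming site. Of the 32 families, 29 could be matched by name to mobile elements of the RefSeq annotation of Release 6, whose coordinates are those of dm6. BS2, DOC5_DM and DOC6_DM are named only. The lines give 30 bases of one annotated copy of each element, 5' to 3' on the strand of the element. Capitals mark the motif GACGT in the first bases, and a run of at least 5 A at the end.
Baggins1 first bases, chr3R:1251615-1251644 (minus strand): ggccgccacgccagtaggtatcacaagggg
DMRT1A first bases, chr3L:1424822-1424851 (plus strand): acatccattgtcccgcgtatttcgcacgtc
DMRT1B first bases, chr3L:13574910-13574939 (plus strand): gctgccaacttggcgcagcgggcgatccgg
FW_DM first bases, chr2L:17687542-17687571 (plus strand): aatgaattcacaattcgatcgccGACGTgt
LINEJ1_DM first bases, chr3R:28792926-28792955 (plus strand): atatgggagatgagcaatcgagtgGACGTg
DOC bases 5 to 34 of the copy, chr2L:16958170-16958199 (plus strand): cggcatttcacagtcttcgggtggaGACGT
G6_DM last bases, chrX:21711343-21711372 (minus strand): aaacgcacgctAAAAAAAAAAAAAAAAAAA
FW_DM last bases, chr3L:14271766-14271795 (plus strand): gcaaagttAAAAAAAAAAAAAAAAAAAAAA
LINEJ1_DM last bases, chrX:22570052-22570081 (plus strand): aacatcatcgtaatcgtaaaaaatAAAAAA

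The letters GACGT were searched in the first 60 bases of each annotated copy, with ACGTC as the same word on the opposite strand. The longer word GACGTC would count for both. Among 183 copies with at least 3 kb of their own sequence, 83 (45.4%) held GACGT on the strand of the element and 17 (9.29%) held ACGTC. Of these 17, 10 were among the 11 long copies of DMRT1A. All 3 long copies of IVK_DM held both words. Over all 866 copies of at least 60 bases the forward share was 13.6%, against 2.77% of 4262 copies of other mobile elements and 3.93% of 17487 gene starts. The forward word was found in 14 of 17 long copies of jockey (LINEJ1_DM), 38 of 41 of Doc (DOC) and 24 of 37 of F (FW_DM). It was found in 0 of 7 long copies of Baggins1, 0 of 13 of I_DM and 0 of 16 of DMRT1B. Copies of the same family are related in sequence and are not independent, so the pooled shares weigh families with many copies most. These counts describe letters in annotated copies of the reference strain and not promoter activity in the sequenced lines.

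The libraries were deep with 29391697 to 35131766 counts each in the repeat table, of which rRNA entries took 28.9% to 34.1%. The TM libraries differed more among themselves than the ctr libraries. Between 2 libraries of one group, the chi-square statistic over the 4856 features averaging 1000 counts or more, divided by its degrees of freedom, was 28.9 to 42.3 in ctr and 60.6 to 232 in TM, the largest between TM replicates 1 and 4. The cellularization gene slam, transcribed for a short time in cycle 14, had 2302, 1989 and 2817 CPM in ctr and 5138, 3346, 3237 and 1351 CPM in TM replicates 1 to 4. TM replicate 1 was thus above and TM replicate 4 below all ctr libraries for slam. The same held for zen, sna and twi. For nullo and bnk, TM replicate 1 was above ctr and TM replicate 4 within it. TM replicates 2 and 3 were also above all ctr libraries for slam, zen, twi, nullo and bnk. For sna, TM replicate 3 was above ctr and TM replicate 2 within it. For eve, TM replicates 1 (844 CPM) and 3 (855 CPM) lay within ctr (779 to 861 CPM). TM replicates 2 (699 CPM) and 4 (617 CPM) lay below it. In every TM library ftz was lower (832 to 1148 CPM) than in ctr (1164 to 1278 CPM). The sum of the 9 cycle 14 markers ran from 5297 to 6510 CPM in ctr and from 4093 to 9459 CPM in TM. In every library slam was its largest term, and Sry-alpha was at 0 in all libraries. The 7 ovary and chorion markers summed to 56.7 to 107 CPM in ctr and 33.6 to 76.9 CPM in TM, and the 3 later muscle markers to 2.58 to 5.05 CPM in ctr and 6.80 to 10.6 CPM in TM. The part of these differences in the values of the LINE families was not tested. The counts were repeated without TM replicates 1 and 4, which leaves TM replicates 2 and 3 still apart from ctr in several of these markers. The nascent counts do not show the depletion of the targeted genes, since Su(var)3-9 had 135 to 156 CPM in ctr and 119 to 131 CPM in TM (log2 fold change -0.20, edgeR's adjusted p = 0.201), and egg and G9a had log2 fold changes of 0.09 and -0.05 in the same table (adjusted p = 0.843 and 0.893). An shRNA expressed in the mother's germline lowers RNA there and need not change transcription in the embryo, which bears on egg and G9a alone. Su(var)3-9 was knocked out and not knocked down, and why its counts in TM stayed near those of ctr was not tested.

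Of the 32 LINE families, 15 were higher and 1 was lower in TM than in ctr embryos at ZGA at an adjusted p under 0.05, and 16 did not pass this threshold. A single family, Baggins1, accounted for about as much added nascent RNA as all the others together. The test was the quasi-likelihood test of edgeR over the 17281 genes and repeats that averaged at least 10 counts per library, with Benjamini-Hochberg adjustment over all of them. All 32 families passed the count minimum. Over all features tested, 2.82% were called higher and 3.08% lower, and among the 3260 repeats tested 2.45% were higher and 0.552% lower. The 32 families had a median log2 fold change of 0.41, against 0.01 over all features and -0.04 over all repeats. LTR families had a median of 0.42, with 52 of 130 higher and 3 lower, and DNA transposon families a median of -0.05, with 1 of 33 higher and 1 lower. In 17 LINE families every TM library was above every ctr library and in 1 every TM library was below, where 9.04% and 9.95% of all features did so. Without TM replicates 1 and 4, an alternative chosen after seeing the marker values, 17 families were higher and 1 lower, and all 15 families of the full comparison were among the 17. It kept TM replicates 2 and 3, which were also above every ctr library for slam, zen, twi, nullo and bnk. The marker difference between the groups thus remained in this alternative, and its part in the calls was not tested.

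**Figure D1:**
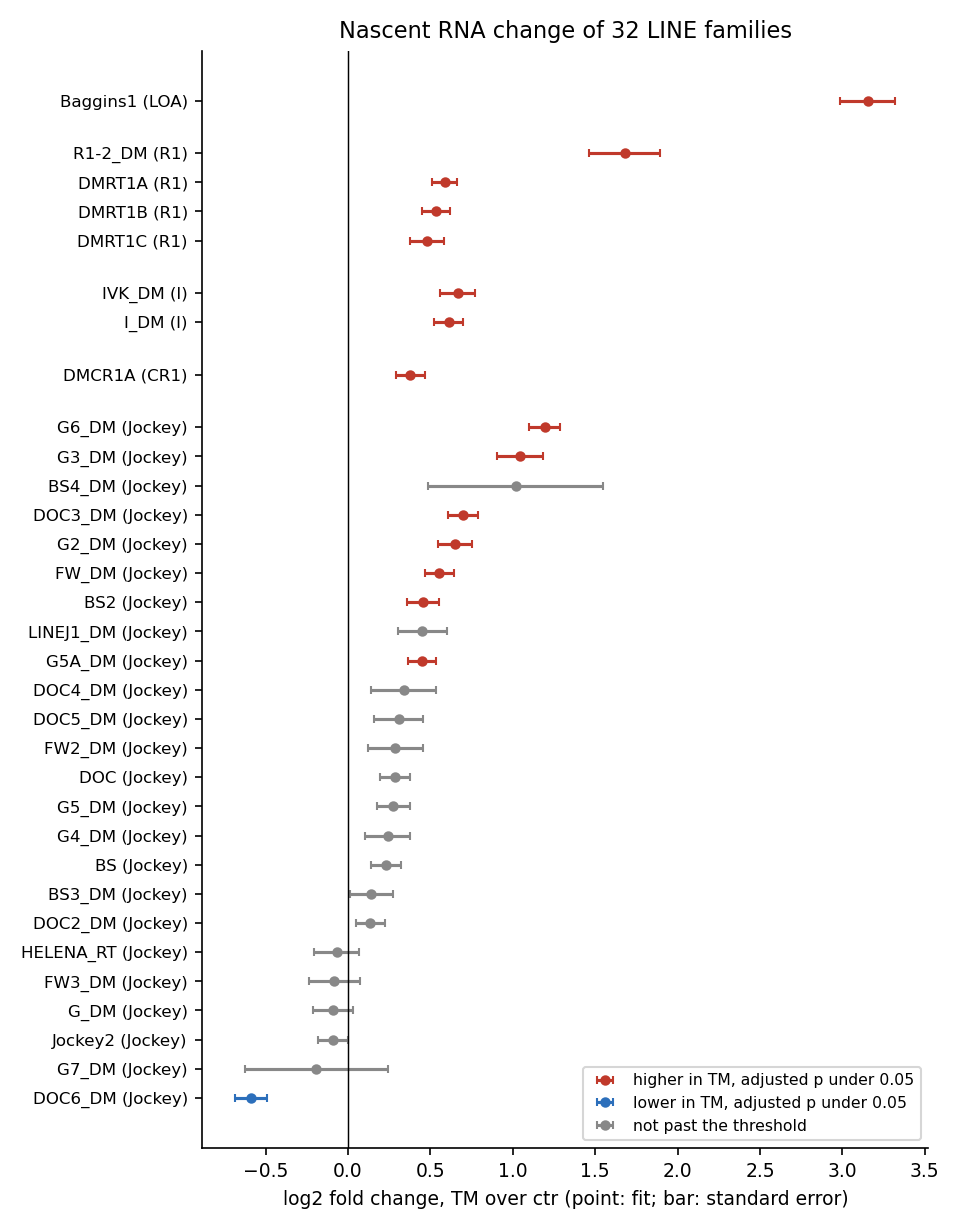
Log2 fold change (TM over ctr) of each of the 32 LINE families, grouped by clade, with the standard error as a bar. The 15 families higher in TM are in red, the 1 lower family in blue and the 16 others in grey. All 8 families outside the Jockey clade are red, and Baggins1 lies at 3.15.

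Baggins1, the only LOA family, had 230, 200 and 240 CPM (counts scaled by TMM to a common library size) in the ctr libraries and 2628, 1875, 1921 and 1530 CPM in TM replicates 1 to 4. The lowest TM library was thus far above the highest ctr library. The mean rose from 224 ± 20.8 (SD, n = 3) to 1988 ± 461 CPM (SD, n = 4), a log2 fold change of 3.15 (standard error, SE, 0.17, edgeR's adjusted p = 9.62e-07), or 8.90-fold. These values rest on 6622 to 7241 counts per ctr library and 48956 to 92926 per TM library. No other of the 202 LTR, LINE, DNA and RC families tested had a larger log2 fold change among the 73 called higher, although 47 features of the whole table called higher did. Leaving out single libraries gave log2 fold changes between 2.99, without TM replicate 1, and 3.26, without TM replicate 4. Baggins1 took 3.61% to 4.14% of the counts of the 32 families in ctr and 16.9% to 27.3% in TM.

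The level of Baggins1 in ctr lay in the middle of the families for its annotated length. Divided by the bases of annotated copies, it had 3.72 CPM per kb in ctr, the 18th highest of 29 matched families. In TM it had 33.1 CPM per kb, the highest of the 29. The annotated copies are those of the reference strain and not the repeat annotation used for counting, so these values per kb are approximate. The annotation holds 36 copies of Baggins1 with 60.1 kb of their own sequence, of which 7 have at least 3 kb and the longest 5915 bases.

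**Figure D2:**
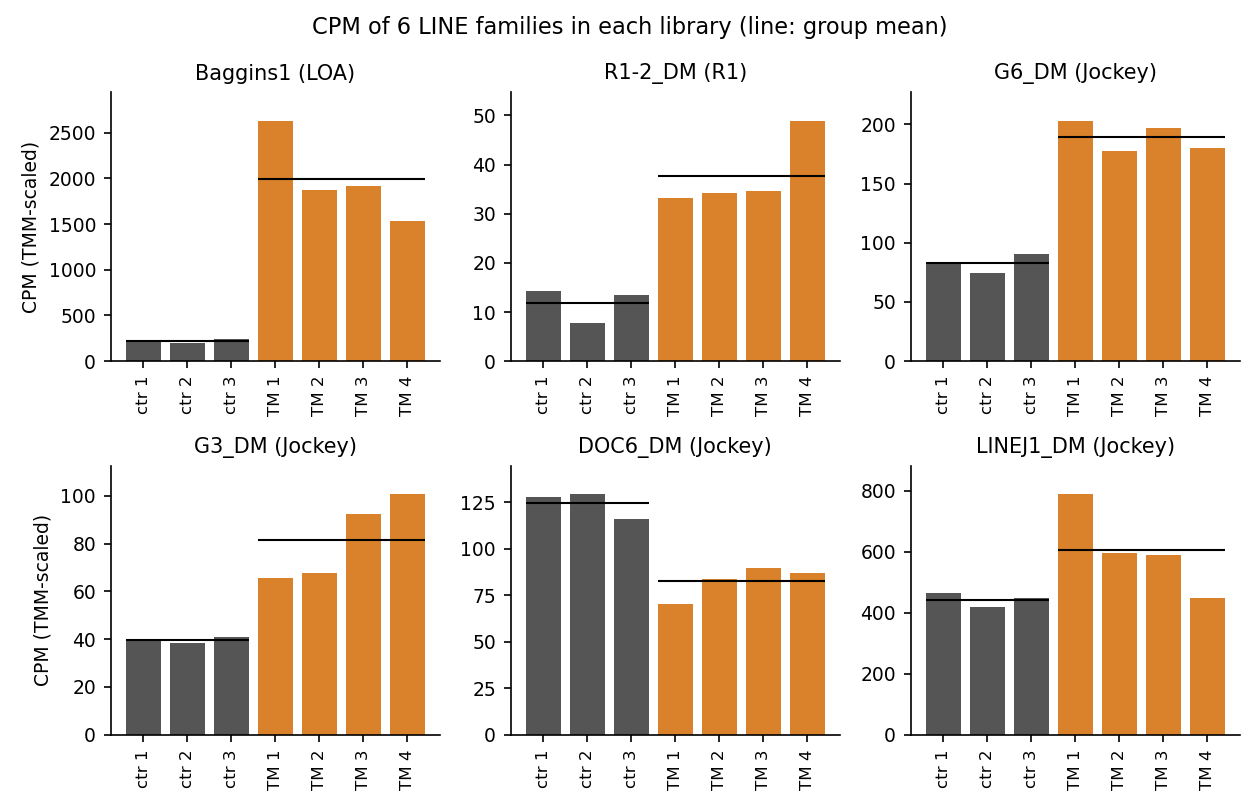
CPM in each library for the 4 families at least 2-fold higher in TM, the 1 family called lower (DOC6_DM) and jockey (LINEJ1_DM), with ctr in grey, TM in orange and the group mean as a line. Baggins1 lies between 200 and 240 CPM in ctr and between 1530 and 2628 CPM in TM. For LINEJ1_DM the bar of TM replicate 4 (449 CPM) is at the level of ctr.

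All 4 families of the R1 clade were higher in TM. R1-2_DM had 14.2, 7.77 and 13.4 CPM in ctr and 33.3, 34.2, 34.6 and 48.9 CPM in TM, so the groups did not overlap. Its log2 fold change was 1.68 (SE 0.21, edgeR's adjusted p = 0.000217). It is a rare row, with 257 to 433 counts per ctr library, and the annotation holds 2 copies with 1.61 kb in all, both within genes on the opposite strand. DMRT1B, the R1 row with the highest mean CPM, had 394, 401 and 416 CPM in ctr and 583, 529, 584 and 643 CPM in TM. The highest ctr library was below the lowest TM library, with a log2 fold change of 0.54 (SE 0.09, edgeR's adjusted p = 0.00151). DMRT1A and DMRT1C had log2 fold changes of 0.59 and 0.48 (adjusted p = 0.000323 and 0.0115). The call of DMRT1C was lost without ctr replicate 2 (adjusted p = 0.0647) and without ctr replicate 3 (0.0681). Summed CPM of the R1 families was 664 to 682 in ctr and 935 to 1098 in TM.

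The 2 families of the I clade were higher in TM. I_DM, the I element, had 174, 181 and 191 CPM in ctr and 248, 280, 276 and 308 CPM in TM. Every TM library was above every ctr library, with a log2 fold change of 0.61 (SE 0.09, edgeR's adjusted p = 0.00068). IVK_DM had 130 to 147 CPM in ctr and 195 to 264 CPM in TM, and its log2 fold change was 0.67 (adjusted p = 0.00148). The 38 annotated copies of I_DM include 13 of at least 3 kb, and those of IVK_DM 3 of 11.

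DMCR1A, the only CR1 family, had the highest CPM of the 32 rows in ctr and has the most annotated copies, 152. It had 1066, 923 and 944 CPM in ctr and 1286, 1203, 1254 and 1336 CPM in TM, which do not overlap. The log2 fold change was 0.38 (SE 0.09, edgeR's adjusted p = 0.0174), the smallest among the families called higher. The call was lost without ctr replicate 2 (adjusted p = 0.112) or 3 (0.109), and with library totals alone in place of TMM (0.0649).

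The Jockey clade was mixed. Of its 24 families, 7 were higher, 1 was lower and 16 did not pass the threshold, with a median log2 fold change of 0.29. The G elements G6_DM and G3_DM were at least 2-fold higher. G6_DM had 83.6, 74.6 and 90.4 CPM in ctr and 203, 177, 197 and 180 CPM in TM, a log2 fold change of 1.19 (SE 0.09, edgeR's adjusted p = 4.55e-06). The TM libraries lay close to each other and all above ctr. G3_DM had 39.2, 38.4 and 41.0 CPM in ctr and 65.5, 67.8, 92.4 and 100.7 CPM in TM, a log2 fold change of 1.04 (SE 0.14, edgeR's adjusted p = 0.000377). Its TM libraries fell into a lower and a higher pair, and without TM replicate 3 or 4 the log2 fold change was 0.98 or 0.93, under 2-fold. Among all features tested, 1.33% were called higher with at least a 2-fold change, against 4 of the 32 LINE families (Baggins1, R1-2_DM, G6_DM and G3_DM).

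Other Jockey families rose by less than 2-fold. They were DOC3_DM with a log2 fold change of 0.70, G2_DM with 0.65, FW_DM, the F element, with 0.55, BS2 with 0.46 and G5A_DM with 0.45. Their adjusted p-values from edgeR ran from 0.000273 for DOC3_DM to 0.0122 for BS2, and in each of them every TM library was above every ctr library. The call of BS2 was lost without ctr replicate 1 (adjusted p = 0.0609) or 2 (0.0886). The F element had 251 to 302 CPM in ctr and 382 to 440 CPM in TM. G5A_DM had 118 to 137 CPM in ctr and 166 to 183 CPM in TM.

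DOC6_DM was the only LINE family called lower. It had 128, 129 and 116 CPM in ctr and 70.6, 83.9, 89.8 and 86.9 CPM in TM, so that all TM libraries were below all ctr libraries. The log2 fold change was -0.59 (SE 0.09, edgeR's adjusted p = 0.00148), and it lay between -0.65 and -0.52 under all other settings. The other Doc families differed from it in sign. DOC3_DM was called higher, and DOC, DOC2_DM, DOC4_DM and DOC5_DM had log2 fold changes of 0.29, 0.14, 0.34 and 0.31 that did not pass the threshold.

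Among the 16 Jockey families without a call, log2 fold changes ran from -0.19 for G7_DM to 1.02 for BS4_DM, 11 positive and 5 negative. BS4_DM had only 29 to 176 counts per library and a standard error of 0.53 (adjusted p = 0.326). G5_DM and jockey were close to each other as the Jockey rows with the highest mean CPM, G5_DM first by the mean of both group means (525 against 524 CPM) and jockey first by the mean over all 7 libraries (536 against 532 CPM). G5_DM had 430, 515 and 479 CPM in ctr and 503, 554, 660 and 581 CPM in TM. The groups overlapped, with a log2 fold change of 0.27 (SE 0.10, edgeR's adjusted p = 0.134). It was past the threshold with DESeq2 (adjusted p = 0.0459) and without TM replicates 1 and 4 (log2 fold change 0.36, adjusted p = 0.0303). In DOC and BS every TM library was above every ctr library, but the adjusted p-values were 0.0840 and 0.166. DOC was past the threshold with DESeq2 (adjusted p = 0.0299).

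The call of jockey itself (LINEJ1_DM) depended on TM replicate 4. It had 464, 417 and 447 CPM in ctr and 788, 595, 589 and 449 CPM in TM replicates 1 to 4, so that TM replicate 4 alone lay within the range of ctr. With all libraries the log2 fold change was 0.45 (SE 0.15, edgeR's adjusted p = 0.106). Without TM replicate 4 it was 0.57 (adjusted p = 0.0024), without TM replicate 1 it was 0.30 (adjusted p = 0.155), without TM replicates 1 and 4 it was 0.42 (adjusted p = 0.00224), and DESeq2 on all libraries gave an adjusted p of 0.0136.

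**Figure D3:**
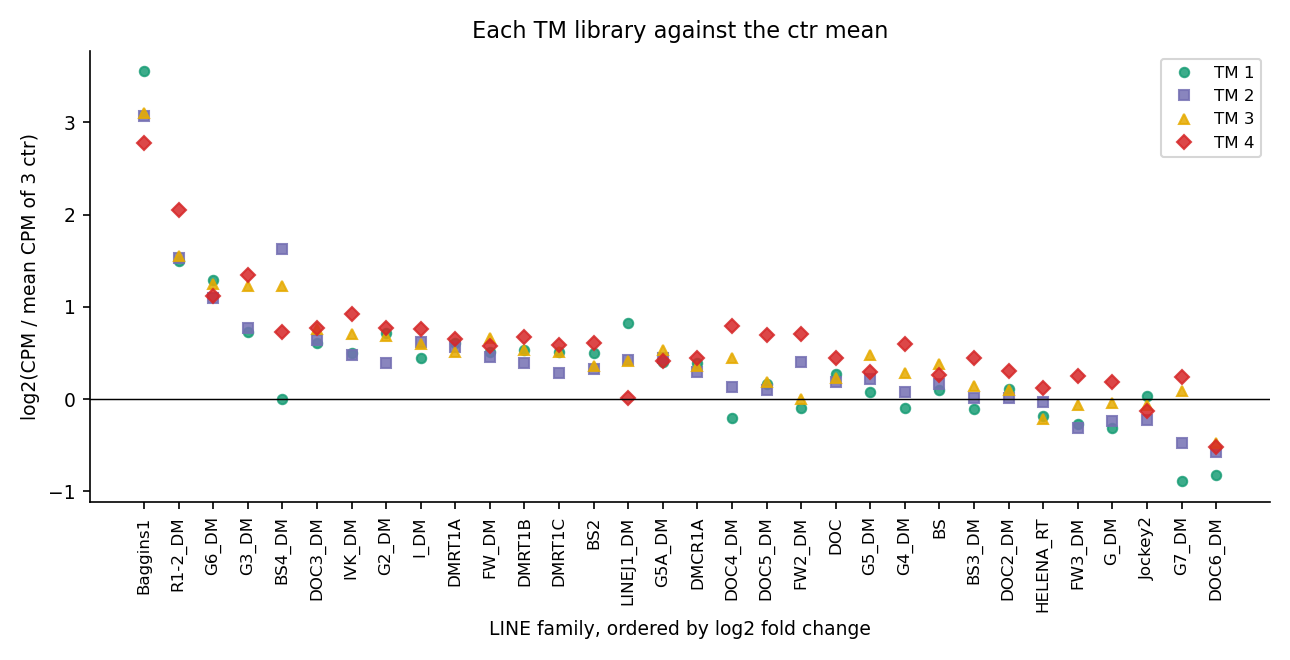
Log2 ratio of CPM in each TM library to the mean CPM of the 3 ctr libraries, for the 32 LINE families in the order of their fitted fold change. TM replicate 4 (red diamonds) is the highest in 22 of 32 families, and it is the lowest for Baggins1 and LINEJ1_DM.

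The 4 TM libraries did not share one order across families. TM replicate 4 was the highest TM library in 22 of the 32 families, where it was the highest in 29.4% of all features tested. TM replicate 1 was the highest in 4 families and the lowest in 15. Baggins1 and jockey went the other way, with TM replicate 1 highest and TM replicate 4 lowest in both. The median log2 ratio to the ctr mean was 0.33, 0.32, 0.43 and 0.59 in TM replicates 1 to 4. The slam level given above also differed most between TM replicates 1 and 4, and its part in this order was not tested.

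**Figure D4:**
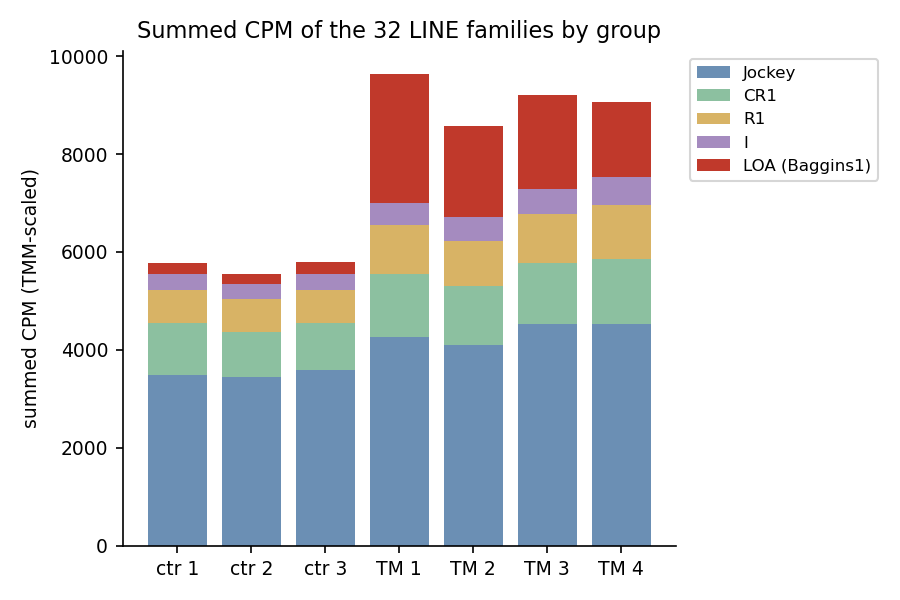
Summed CPM of the 32 LINE families in each library, stacked by clade. The sums lie between 5541 and 5798 CPM in ctr and between 8583 and 9629 CPM in TM, and the red LOA block (Baggins1) grows from 200 to 240 CPM in ctr to 1530 to 2628 CPM in TM.

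Summed over the 32 families, the level rose from 5707 ± 144 CPM (SD, n = 3) in ctr to 9119 ± 431 CPM (SD, n = 4) in TM, given as a description with no test. The sums did not overlap, with 5541 to 5798 CPM in ctr and 8583 to 9629 CPM in TM. Of the 3411 CPM added on average, 51.7% came from Baggins1 and 24.8% from the 24 Jockey families. Without Baggins1 the sums were 5341 to 5558 CPM in ctr and 6708 to 7534 CPM in TM, a ratio of means of 1.30. By clade the ratio of means was 1.24 for Jockey, 1.30 for CR1, 1.49 for R1 and 1.55 for I. As a share of all counts, the 32 families took 0.572% to 0.599% in ctr and 0.857% to 0.969% in TM.

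H3K9 methylation is densest in pericentromeric heterochromatin, so the annotated copies were placed on the chromosomes. The annotation holds 905 copies of the 29 matched families. Of these, 453 (50.1%) lay within 5 Mb of the centromeric end of an arm, on chromosome 4 or on Y, against 54.9% of 4829 copies of other mobile elements. The share was 61.1% for Baggins1, 67.1% for DMCR1A, 84.6% for G6_DM and 22.9% for jockey. The 14 matched families called higher had a median share of 51.8%, between 0% and 84.6%, and the 15 without a call had a median of 64.0%, between 22.9% and 100%. Pooled over copies the order was the other way, with 290 of 522 copies (55.6%) for the families called higher and 163 of 383 (42.6%) for those without a call. Across the 29 families the Spearman correlation of the share with the log2 fold change was -0.24, and -0.19 without Baggins1 and R1-2_DM. The correlation of the number of copies with the log2 fold change was 0.02. These are descriptions over families that share the same 7 libraries. The 5 Mb window is a fixed distance and not a map of H3K9 methylation, and methylation at the copies was not examined here. FW3_DM and G_DM had shares of 85.7% and 82.4% and log2 fold changes of -0.08 and -0.09.

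**Figure D5:**
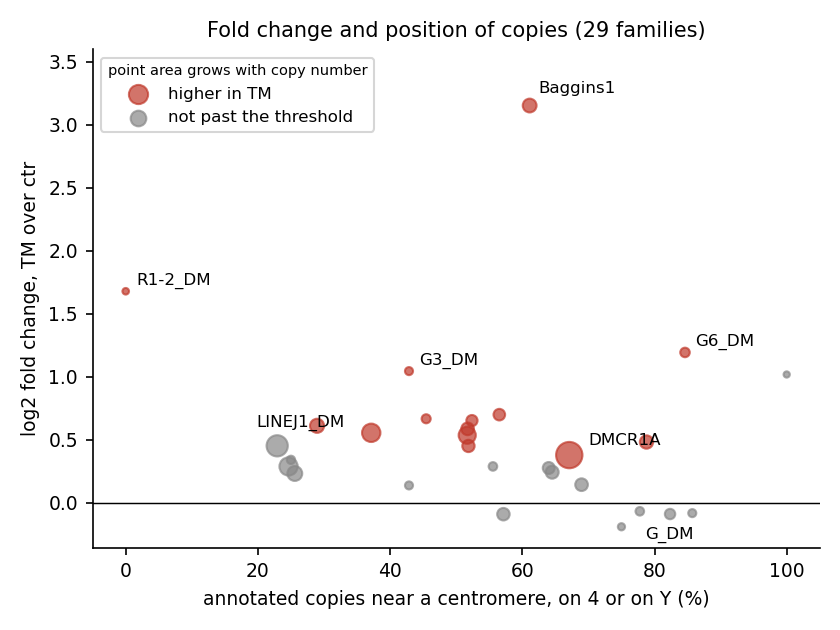
Log2 fold change (TM over ctr) against the percentage of annotated copies within 5 Mb of a centromeric arm end, on chromosome 4 or on Y, for 29 matched families. Red points are families called higher, grey points are not past the threshold, and point area grows with the number of copies. Families at similar percentages, such as G6_DM and G_DM, lie at 1.19 and -0.09.

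Copies within genes can be transcribed with their host. Of the 905 copies, 191 lay within a gene on the same strand, 212 within a gene on the opposite strand and 502 outside genes. The copies lay in 236 genes, of which 203 were tested in the gene-body table. There, 22 (10.8%) were higher in TM and 26 (12.8%) lower, with a median log2 fold change of 0.01. Over all 10917 genes tested, 4.45% were higher and 6.38% lower. The host genes were longer, with a median of 37.3 kb against 2.53 kb, and had more reads, with a median of 54.2 against 26.2 CPM, and the part of this in their share of calls was not tested. Of the host genes with a copy on the same strand, 9 of 109 (8.26%) were higher and 13 (11.9%) lower. Of those with copies on the opposite strand only, 13 of 94 (13.8%) were higher and 13 lower, and the difference between the strands was not tested. Of 8 tested genes with a copy of Baggins1, 1 was higher and none was lower. It was Myo81F, named after its value was seen, whose copies of Baggins1, DMRT1B, DOC4_DM and G6_DM all lie on the opposite strand and whose log2 fold change was 0.74 (edgeR's adjusted p = 0.000386).

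A list of 25 genes of the piRNA pathway and of H3K9 methylation on transposons was counted in the gene-body table. Of 23 tested, 2 were higher and 1 was lower in TM, where 4.45% of all genes were higher and 6.38% lower. The list had a median log2 fold change of 0.04, against 0.03 over all genes. The gene aub, a cytoplasmic Piwi-clade Argonaute of the germline that cleaves transposon RNA, had 23.6, 18.3 and 20.4 CPM in ctr and 38.6, 38.1, 41.7 and 56.3 CPM in TM. Its groups did not overlap, with a log2 fold change of 1.07 (SE 0.18, edgeR's adjusted p = 0.0012). The helicase gene spn-E, which acts with aub in making piRNAs, had 87.1, 98.5 and 89.8 CPM in ctr and 144, 157, 175 and 157 CPM in TM, a log2 fold change of 0.78 (SE 0.10, edgeR's adjusted p = 5.3e-05). Su(var)2-10, a SUMO ligase that links piRNA targeting to H3K9 methylation, had a log2 fold change of -0.29 (edgeR's adjusted p = 0.0196), from 360 to 385 CPM in ctr to 291 to 316 CPM in TM. These counts are of nascent RNA in the embryo and not of maternal RNA or protein.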

How the data were processed

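Per the labels and the study's methods, the authors used cutadapt for trimming and TEtranscripts within snakePipes for estimates per gene and repeat family. These deposited expected counts are whole numbers without normalization, and reads mapping to several places are shared among a family's copies. The TEtranscripts version and strand setting are not given in the sources used here. In the second table the authors deposited raw counts on the sense strand of gene bodies (Bowtie2 2.3.3.1, dm6, featureCounts of Subread 1.5.3).

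Each table was fitted as a whole with edgeR 4.0.16 (R 4.3.3), keeping features that averaged at least 10 counts, with TMM factors, a robust quasi-likelihood test of TM against ctr, Benjamini-Hochberg adjustment over all features tested and a threshold of 0.05. The fit was tested on simulated data. SE is the fold change divided by the root of its F statistic. Alternatives were DESeq2 1.42.0, a replicate block, other count minimums, scalings and adjustments, and leaving out libraries. Families given in full by rule were those called and at least 2-fold different or lower, the one with the highest mean CPM in each clade of several, and the extremes of fold change. Mean CPM was taken both as the mean of the group means and over the 7 libraries. Copies and sequences came from RefSeq Release 6, with names matched by hand. The families and gene lists were chosen with earlier results of these data known. The study calls its libraries biological replicates. Molecular identifiers are not mentioned in the sources used here, so PCR copies may be counted.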

Additional observations from a re-analysis of the deposited data

Results flagged for a closer look

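By Dixon's criterion at 95%, TM replicate 4 lay far above the other replicates for 2 of the 32 LINE families. For R1-2_DM, TM replicate 4 had 48.9 CPM against 33.3 to 34.6 CPM in the other 3, and the gap took 0.912 of the whole range. For DOC5_DM it had 61.6 CPM against 40.9 to 43.4 CPM, a gap of 0.879 of the range. Chance alone would give about 1.6 such families among 32.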

How the results depend on the processing

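The number of LINE families higher in TM was 15, and it ran from 12, without ctr replicate 2, to 18, with DESeq2. It was 14 with library totals alone and 12 to 16 when 1 library was left out. Each of these counts held 12 to 15 of the 15 families. The number lower was 1 in every setting. The number at least 2-fold higher was 4, or 3 with library totals alone, with the replicate block and without TM replicate 3 or 4. The median log2 fold change of all features moved by less than 0.1 under each scaling. Among 324 fold changes of the families called or named by rule under other settings, 311 kept direction and side of the threshold. Of the others, 7 lost the threshold and 6 gained it (LINEJ1_DM under 4 settings and G5_DM under 2), and 0 of the 324 changed sign. Those adjusted over repeats alone came from the main fit with new adjusted p-values, so their sign could not change. With the replicate block, 16 families were higher, Baggins1 had a log2 fold change of 3.25, and the added family was LINEJ1_DM. Only TM has a replicate 4, so the block fit takes little from it and is not separate from leaving it out. Without TM replicate 4, 16 families were also higher and Baggins1 had a log2 fold change of 3.26. No pairing by replicate number was seen, as the correlations of deviations for the same number were 0.01, -0.003 and -0.02. They weigh rare and abundant features alike, and noise in rare features lowers them, so they cannot exclude a shared batch. TM replicate 4 has no partner. The precision of rare rows such as BS4_DM and G7_DM is limited by their counts.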
